A study of Mus musculus with 16 samples.

Results

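Laminins, nidogens, perlecan and collagens build the basement membrane and the interstitial matrix, and integrins are the receptors that hold cells to them. The 85 genes described here were taken by symbol: laminin chains (Lama, Lamb and Lamc with a number), collagen chains (Col with a number, then a with a number), integrin α and β subunits (Itga and Itgb), and Nid1, Nid2 and Hspg2. They are 85 of the 45513 genes of the count table, and 77 of them had at least 1 count. The choice rests on names alone, and it also takes in Col4a3bp, which encodes a ceramide transfer protein and no collagen, so 84 of the 85 are matrix or receptor genes.

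The values come from RNA sequencing of colon epithelium of 8 Atoh1(WT)CreERT2 mice with the Rosa26tdTom reporter. In this line CreERT2 sits downstream of the Atoh1 coding sequence at the Atoh1 locus, so that tamoxifen turns on tdTom permanently in cells that express Atoh1, the transcription factor of the secretory lineage. Every mouse carried both alleles and was given tamoxifen, according to the labels 1 mg daily over 3 days, so no library is free of Cre, reporter or drug. Live EpCAM+ cells were collected from every colon as a tdTom+ fraction and a tdTom- fraction, which gave 8 libraries in each group. The mice were 8 to 16 weeks old, of both sexes, on a C57BL/6 background.

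Epithelial cells stand on a basement membrane whose laminins are trimers of 1 α, 1 β and 1 γ chain. Lama3 and Lamb3 encode chains of the laminin that anchors hemidesmosomes, while Lama5 pairs with Lamb1 or Lamb2 and with Lamc1. Nidogens and perlecan link the laminin sheet to the type IV collagen network. Integrins are α/β pairs: α6β4 binds laminin at hemidesmosomes, α3β1 binds laminin at other contacts, α1β1 and α2β1 bind collagen, α5β1 and αv pairs bind fibronectin and related ligands, and the β2 integrins belong to leukocytes.

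Total counts ranged from 16482530 to 24218367 in tdTom+ libraries and from 18318172 to 45791503 in tdTom- libraries, the largest being that of mouse 4. Levels are given as CPM, the reads of a gene in 1000000 reads with TMM-scaled library sizes, as the lowest, median and highest of 8 mice, and tests are edgeR quasi-likelihood tests over all genes, called at a Benjamini-Hochberg adjusted p under 0.01. Atoh1 ranged from 103 to 166 CPM in the tdTom+ libraries and from 3.18 to 8.89 CPM in the tdTom- libraries. All 7 goblet cell markers were higher in tdTom+ cells and all 7 absorptive markers were lower. Enteroendocrine markers were lower for 6 of 7, with Pcsk1 higher, and 4 of 6 tuft cell markers were lower. Among 6 stem cell markers 5 were tested, with 4 lower and Lrig1 higher. The tdTom- fraction is thus a mixture of the unlabelled epithelium. Each fraction also held reads of the other's markers. Goblet markers summed to 49049 to 102910 CPM in tdTom+ and 2224 to 8657 CPM in tdTom- cells. Enteroendocrine markers summed to 254 to 675 CPM and 1301 to 3680 CPM, and stem cell markers to 363 to 431 CPM and 310 to 476 CPM. Of the 7 epithelial markers 6 were lower and Krt18 was higher, with a summed level of 6730 to 7849 CPM in tdTom+ and 10227 to 13054 CPM in tdTom- cells. In such bulk samples, fewer cells of a type and less RNA per cell cannot be told apart.

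The 41 members with enough counts to be tested leaned towards the tdTom- fraction. In tdTom+ cells 7 of them were higher and 20 were lower, that is 17.1% and 48.8%, while 14 were not called. Among all 15841 genes tested, 25.5% were called higher and 25.5% were called lower. The median log2 fold change (tdTom+ against tdTom-) was −0.49 over the 41 members and 0.0039 over all genes, and the median absolute value was 0.84 against 0.33. When mice were fitted as blocks, 8 members were higher and 21 were lower, since Col20a1 and Itga4 were then called too.

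**Figure D1:**
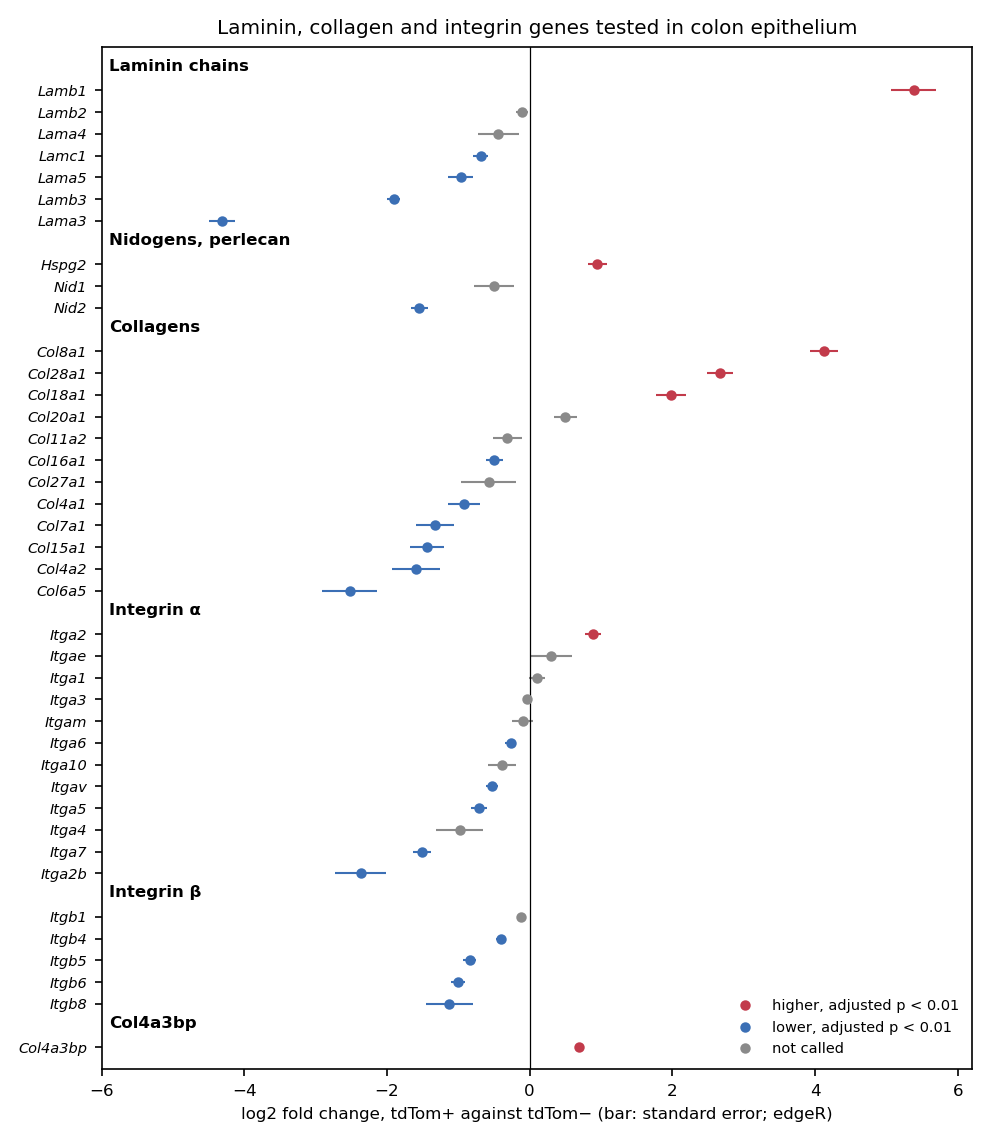
Log2 fold change of 40 of the 41 members tested, tdTom+ against tdTom- cells, by class, with the standard error as a bar and the call by colour. Lamb1 (5.38) and Lama3 (−4.31) lie at the ends of the range, and 20 points are called below 0 and 7 above it.

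The laminin chains moved in opposite directions. Lamb1 rose in tdTom+ cells, Lama3, Lamb3, Lama5 and Lamc1 fell, and Lama4 and Lamb2 were not called. Lama1 and Lama2 had no count in any library and Lamc3 had 2 counts in all. Of the hemidesmosomal laminin, Lama3 changed by −4.31 and Lamb3 by −1.91 on the log2 scale.

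Lama3 (ENSMUSG00000024421), which encodes the α chain of the hemidesmosomal laminin, had 2.53, 3.22 and 4.70 CPM (lowest, median and highest) in tdTom+ cells. In tdTom- cells it had 34.0, 72.5 and 91.3 CPM. Every tdTom+ library lay far below every tdTom- library, and the lowest tdTom- value was that of mouse 4. The difference on the log2 scale was −4.31 (standard error 0.19, adjusted p = 4.79e-14), a 19.8-fold lower level.

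Lama5 (ENSMUSG00000015647; chromosome 2, 180176373 to 180225859, minus strand, GRCm38), the α chain found in most epithelial basement membranes, had 12.1, 17.3 and 31.3 CPM in tdTom+ and 22.6, 33.4 and 52.3 CPM in tdTom- cells. The groups overlapped, through the tdTom+ library of mouse 3, but Lama5 was lower in tdTom+ cells in all 8 mice (log2 fold change −0.97, standard error 0.17, adjusted p = 6.59e-05). In mice 1 to 3 alone the fold change was −0.85 and was not called (adjusted p = 0.0639). That fit left the libraries of a mouse unpaired, and the block fit over all 8 mice called Lama5 (−0.96, adjusted p = 1.56e-07). Lama4 was near the limit of detection in both fractions, with medians of 0.612 and 0.761 CPM (adjusted p = 0.199).

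The make-up of the α chains therefore differed between the fractions. Per kilobase of exon, Lama3 was 16.2% of the α chain reads in tdTom+ cells (9.55% to 22.6% over 8 mice) and 65.7% in tdTom- cells (52.1% to 78.3%). Lama5 was 81.5% (74.2% to 87.4%) and 33.7% (20.3% to 46.7%). The sum of all α chains was 1.90 CPM per kilobase of exon (RPKM) at the median in tdTom+ and 9.90 RPKM in tdTom- cells, so the larger Lama5 share in tdTom+ cells stands on a lower total.

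Lamb1 (ENSMUSG00000002900; chromosome 12, 31265234 to 31329644, plus strand) was the member with the largest change. It had 7.64, 10.2 and 19.7 CPM in tdTom+ cells and 0.0583, 0.267 and 0.756 CPM in tdTom- cells. The groups were far apart, and the tdTom- libraries held 2 to 14 reads each, 51 in all, against 1859 in the tdTom+ libraries. The difference on the log2 scale was 5.38 (standard error 0.32, adjusted p = 6.54e-12), with a higher level in tdTom+ cells in 8 of 8 mice.

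Lamb3 (ENSMUSG00000026639; chromosome 1, 193207699 to 193343878, plus strand), the β chain of the hemidesmosomal laminin, had 49.2, 51.9 and 59.8 CPM in tdTom+ and 145, 197 and 272 CPM in tdTom- cells. The tdTom+ libraries were close to one another and all below the tdTom- libraries. The difference on the log2 scale was −1.91 (standard error 0.094, adjusted p = 3.48e-13). Lamb2, the β chain that can take the place of Lamb1, had 23.9, 25.3 and 30.5 CPM against 23.4, 28.9 and 33.2 CPM and was not called (log2 fold change −0.11, standard error 0.082, adjusted p = 0.270).

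Lamb3 remained the β chain with the most reads per kilobase in both fractions, at 60.2% (53.2% to 63.0%) of the β chains in tdTom+ and 86.2% (80.1% to 90.3%) in tdTom- cells. Lamb2 made up 32.2% (27.7% to 36.4%) and 13.7% (9.64% to 19.9%), and Lamb1 made up 7.67% (6.34% to 13.9%) and 0.0656%. In RPKM the medians in tdTom+ cells were 7.85 for Lamb3, 4.17 for Lamb2 and 1.03 for Lamb1, and every tdTom+ library had them in that order. The change of Lamb1 is thus a large fold change at a low level beside the other β chains. In tdTom+ cells Lama5 and Lamc1 had medians of 1.52 and 1.34 RPKM, nearer to that of Lamb1.

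**Figure D2:**
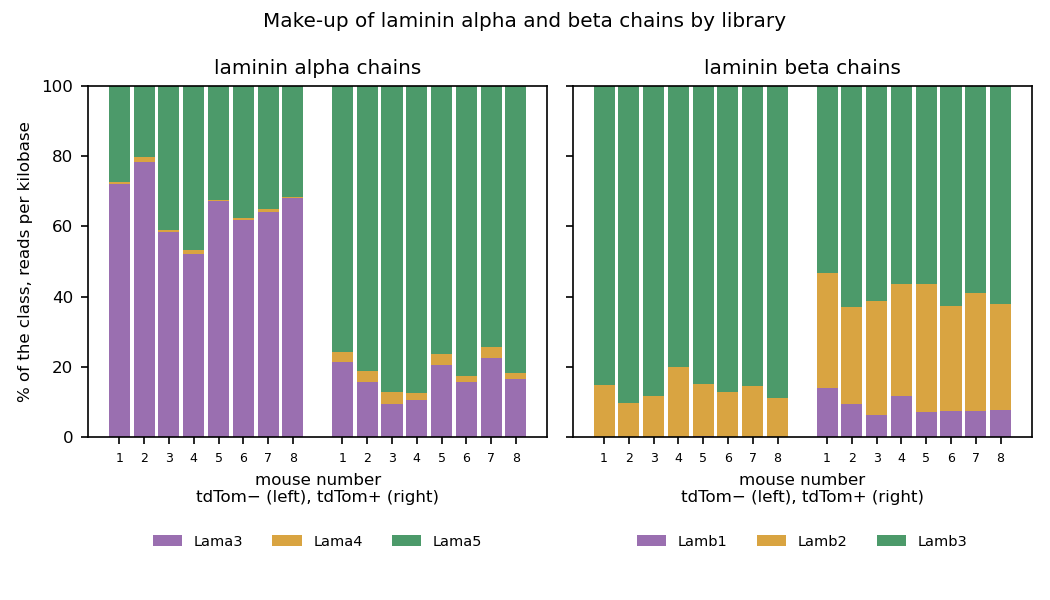
Percent of the reads per kilobase of the laminin α and β chains that each chain took, 1 bar per library, with tdTom- libraries on the left and tdTom+ libraries on the right of each panel. Lama3 takes 52.1% to 78.3% of the α chains in tdTom- and 9.55% to 22.6% in tdTom+ libraries, and Lamb1 is visible only in tdTom+ libraries.

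Lamc1, a γ chain gene (ENSMUSG00000026478; chromosome 1, 153218922 to 153332786, minus strand) had 8.46, 11.1 and 15.3 CPM in tdTom+ and 15.97, 17.6 and 20.9 CPM in tdTom- cells, with no overlap (log2 fold change −0.69, standard error 0.10, adjusted p = 7.44e-06). All 8 mice had less Lamc1 in their tdTom+ library.

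Since Lamb1 and Lamb3 were the β chains called in opposite directions, the 250 bases before their RefSeq starts (GRCm38.p6) are shown. Capitals mark every match to CANNTG, the E-box that basic helix-loop-helix factors such as Atoh1 bind, which reads the same in form on both strands. The letters CAGCTG are 1 kind of CANNTG.
Lamb1, chr12:31265043-31265292, plus strand: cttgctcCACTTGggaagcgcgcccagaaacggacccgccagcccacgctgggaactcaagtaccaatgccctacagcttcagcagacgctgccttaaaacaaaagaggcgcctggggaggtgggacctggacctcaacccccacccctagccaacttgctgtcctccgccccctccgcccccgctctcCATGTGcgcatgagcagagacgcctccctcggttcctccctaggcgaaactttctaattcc
Lamb3, chr1:193301744-193301993, plus strand: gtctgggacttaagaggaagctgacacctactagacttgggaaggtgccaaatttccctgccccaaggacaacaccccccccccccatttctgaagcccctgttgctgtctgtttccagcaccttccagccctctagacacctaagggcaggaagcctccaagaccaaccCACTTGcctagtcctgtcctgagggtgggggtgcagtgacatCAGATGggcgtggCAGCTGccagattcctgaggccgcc

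The Lamb1 window holds 2 CANNTG matches and no CAGCTG, and the Lamb3 window holds 3 matches, of which 1 is CAGCTG. RefSeq gives Lamb3 a further start, whose window, directly downstream, holds 1 CANNTG and 0 CAGCTG. In the annotation used for the counts, Lamb1 starts within the last bases of its window and Lamb3 has an earlier start outside it. Over all 32851 RefSeq promoters of the same length, 13% hold CAGCTG and 66.2% hold CANNTG. Of the members named here, 25 had a promoter in the RefSeq set searched. Lama3, Nid2, Itga7, Itgb4, Itga6 and Lamc1, all called lower, had none in that set and were not searched. CAGCTG was found in 0 of the 6 called higher, in 5 of the 14 called lower (Col16a1, Col6a5, Itga2b, Itgb5 and Lamb3) and in 1 of the 5 not called (Itga1), and CANNTG in 3, 10 and 3. A gene counts there if any of its windows holds the letters, whereas the shares of all promoters are over single windows. Such matches are letters in a window and were not measured as binding.

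Nidogen and perlecan genes also differed in direction. Hspg2 (ENSMUSG00000028763; chromosome 4, 137468769 to 137570630, plus strand), which encodes the heparan sulfate proteoglycan perlecan, had 39.4, 60.5 and 84.6 CPM in tdTom+ and 23.2, 33.5 and 40.4 CPM in tdTom- cells. The ranges touched through mouse 3 of tdTom+ and mouse 4 of tdTom-, but each of the 8 mice had more Hspg2 in its tdTom+ library (log2 fold change 0.95, standard error 0.14, adjusted p = 4.14e-06). Nid2 (ENSMUSG00000021806; chromosome 14, 19751257 to 19811787, plus strand) fell from 10.4, 10.97 and 15.1 CPM in tdTom- to 2.93, 3.68 and 5.39 CPM in tdTom+ cells, without overlap (log2 fold change −1.55, standard error 0.12, adjusted p = 6.92e-10). Nid1, at medians of 0.507 and 0.889 CPM, was not called (adjusted p = 0.125).

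The type IV collagen genes, which encode the network-forming collagen of basement membranes, had few reads in either fraction. Their summed level was 0.126 RPKM at the median in tdTom+ and 0.304 RPKM in tdTom- cells, against 1.90 and 9.90 RPKM for the laminin α chains. Col4a1 and Col4a2, whose starts lie 21 bases apart on opposite strands, were both called lower. Counting by strand keeps their reads apart.

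Col4a1 had 0.299, 0.511 and 0.871 CPM in tdTom+ and 0.418, 1.07 and 1.33 CPM in tdTom- cells (log2 fold change −0.92, standard error 0.23, adjusted p = 0.00169, lower in 7 of 8 mice). Col4a2 had 0.113, 0.256 and 0.922 CPM against 0.434, 0.963 and 1.51 CPM (log2 fold change −1.59, standard error 0.33, adjusted p = 3.33e-04, lower in 7 of 8 mice). The ranges of both genes overlapped. In mice 1 to 3 alone neither was called, with −0.92 (adjusted p = 0.0511) for Col4a1 and −0.70 (adjusted p = 0.367) for Col4a2, and in mice 5 to 8 alone Col4a1 was not called either (−0.77, adjusted p = 0.118). These subset fits did not pair the libraries of a mouse. Fitted with the mouse as a block over all 8 mice, Col4a1 (−0.92, adjusted p = 0.00132) and Col4a2 (−1.62, adjusted p = 5.90e-04) were called. The other 4 chains, Col4a3, Col4a4, Col4a5 and Col4a6, had 2 to 39 counts over all 16 libraries and were not tested.

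Genes of other cell types that make these proteins were low as well. Of 10 fibroblast and muscle markers 3 were tested and 2 (Pdgfrb and Acta2) were lower in tdTom+ cells, with a summed level of 9.30 to 13.2 CPM against 13.7 to 20.8 CPM. Lum and Dpt were at 0 in every library and Dcn had 2 counts. Of 7 endothelial markers 2 were tested, Vwf being higher and Pecam1 lower, with sums of 8.00 to 11.2 CPM against 5.83 to 8.67 CPM, and Cdh5 had 1 count in all. The part of such cells in the collagen and nidogen values was not tested.

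Of all 44 collagen genes 3 rose and, with the type IV chains, 6 fell, while 3 tested genes were not called and 32 were not tested. Of the 12 tested, 25% were thus higher and 50% lower, where 25.5% of all genes tested were called in each direction. Col8a1 (ENSMUSG00000068196; chromosome 16, 57624258 to 57754737, minus strand), a short-chain collagen, was the collagen gene with the highest level in tdTom+ cells. It had 68.8, 94.8 and 131 CPM in tdTom+ and 2.57, 6.13 and 8.08 CPM in tdTom- cells. All tdTom+ libraries lay above all tdTom- libraries, and the difference on the log2 scale was 4.13 (standard error 0.20, adjusted p = 2.22e-13), a 17.5-fold higher level.

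Col28a1 (chromosome 6, 7997808 to 8192617, minus strand), a collagen with von Willebrand factor A domains, had 2.39, 3.28 and 4.79 CPM against 0.326, 0.487 and 0.813 CPM (log2 fold change 2.67, standard error 0.18, adjusted p = 6.66e-11). Col18a1, the multiplexin collagen of basement membranes from which endostatin is cut, had 1.42, 1.66 and 2.20 CPM against 0.254, 0.378 and 0.836 CPM (log2 fold change 1.98, standard error 0.21, adjusted p = 4.51e-08). Neither gene overlapped between the groups. Per kilobase, Col8a1 was far above both, at a median of 18.6 RPKM in tdTom+ cells against 0.670 RPKM for Col28a1 and 0.237 RPKM for Col18a1.

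**Figure D3:**
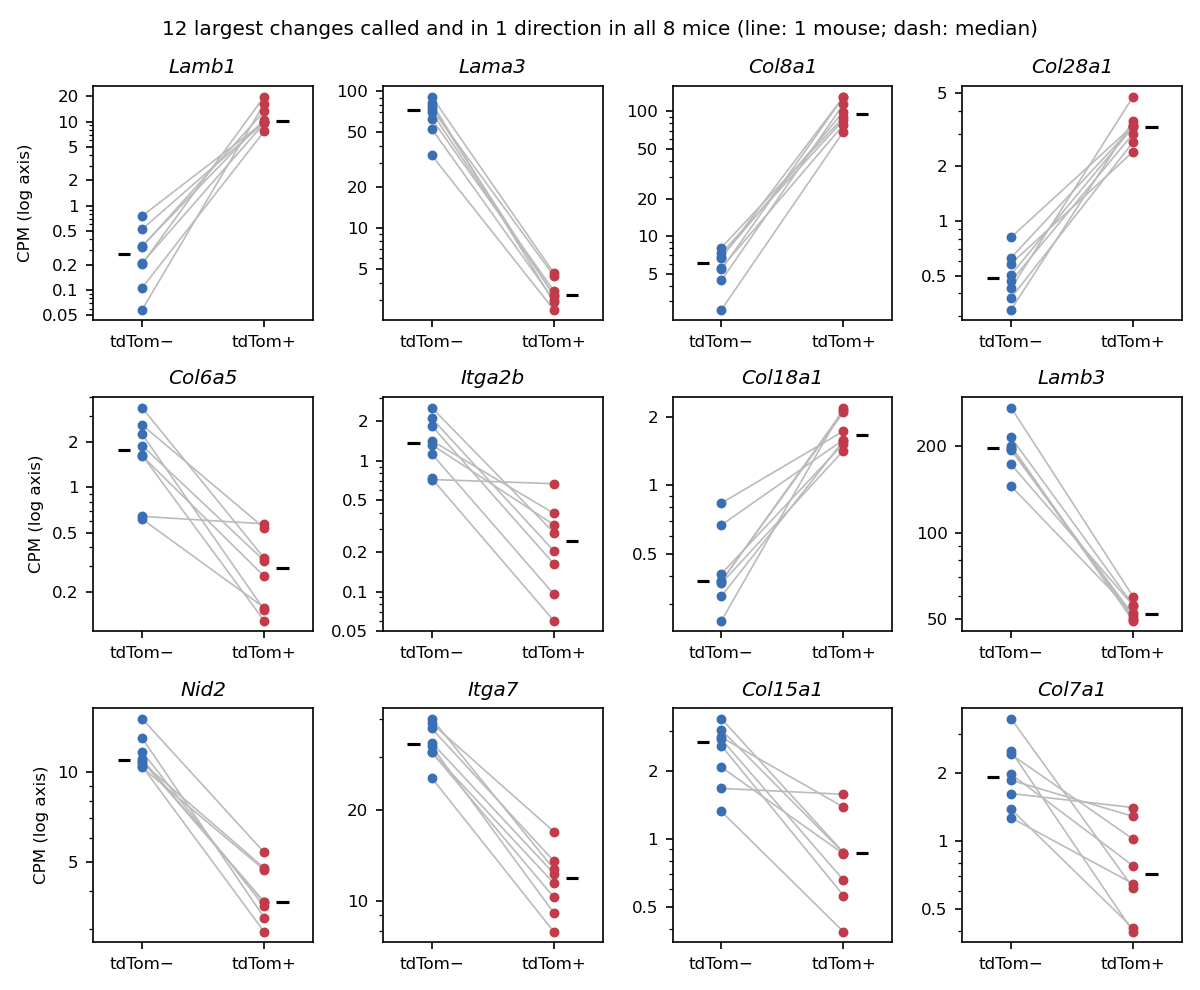
CPM on a log axis of 12 members in the tdTom- and tdTom+ library of each mouse, joined by a line, with dashes at the medians. They are the members with the largest absolute fold change among those called, with at least 100 counts and 1 direction in 8 of 8 mice, so that all lines slope one way by choice, and Col15a1 and Col7a1 are the panels in which the groups overlap.

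The other multiplexin gene, Col15a1, went the other way, with 0.388, 0.863 and 1.58 CPM in tdTom+ and 1.32, 2.68 and 3.41 CPM in tdTom- cells (log2 fold change −1.44, standard error 0.24, adjusted p = 3.13e-05). Col7a1, the collagen of anchoring fibrils, had 0.396, 0.712 and 1.41 CPM against 1.27, 1.93 and 3.50 CPM (log2 fold change −1.33, standard error 0.27, adjusted p = 2.07e-04). Both overlapped between the groups, and in mice 1 to 3 alone neither was called (adjusted p = 0.0820 and 0.0442). That fit did not pair the libraries of a mouse. In the block fit over all 8 mice both were called (−1.47 and −1.33, adjusted p = 9.81e-06 and 1.28e-04). Col6a5, a chain of the beaded filament collagen, had 0.129, 0.291 and 0.573 CPM against 0.616, 1.77 and 3.40 CPM and did not overlap (log2 fold change −2.52, standard error 0.39, adjusted p = 1.03e-05).

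Col16a1, which associates with collagen fibrils, was the collagen gene lower in tdTom+ cells with the most reads, at 11.8, 15.5 and 20.9 CPM against 17.2, 21.8 and 29.3 CPM (log2 fold change −0.49, standard error 0.12, adjusted p = 0.00120). It was not called in mice 1 to 3 alone (adjusted p = 0.0364) or in mice 5 to 8 alone (adjusted p = 0.0392). Neither of these fits paired the libraries of a mouse. The block fit over all 8 mice called Col16a1 (−0.49, adjusted p = 9.57e-06). Col20a1 had medians of 4.003 and 2.72 CPM and a log2 fold change of 0.50 (adjusted p = 0.0130), which passed with the mouse as a block (0.52 at adjusted p = 0.00207).

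The other collagen genes, the fibrillar ones among them, had few or no reads in these libraries. Of the fibrillar collagen genes Col11a2 and Col27a1 were tested and not called, with medians of 0.278 to 1.25 CPM, and the other 9, Col1a1, Col1a2, Col2a1, Col3a1, Col5a1, Col5a2, Col5a3, Col11a1 and Col24a1, had 0 to 66 counts over all libraries. Col6a1, Col6a2, Col6a3, Col6a4, Col6a6 and Col26a1 had 1 to 139 counts. The membrane collagens Col13a1, Col17a1, Col23a1 and Col25a1 had 0 to 93 counts, among them 34 for Col17a1, the collagen of skin hemidesmosomes. Col9a1, Col9a2, Col9a3, Col12a1, Col14a1, Col19a1 and Col22a1 had 1 to 182 counts, and Col8a2 and Col10a1 had 141 and 0.

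Col8a2 and Col9a2, left out by the filter on low counts, were found almost only in the tdTom- libraries. Col8a2 had 3 reads in tdTom+ and 138 in tdTom- libraries, and Col9a2 had 15 and 167. Without the filter both were called lower in tdTom+ cells (adjusted p = 2.04e-08 and 3.58e-06), as were Itgax, Itga11, Itgb2 and Col25a1, which made 26 members lower in place of 20. That was 26 of 77 members, where 4309 of 27559 genes were called lower. Col8a2 and Col8a1, the chains of type VIII collagen, were thus called in opposite directions.

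The integrin genes with the most reads were those of α6β4 and of β1 pairs. Of 26 integrin genes 17 were tested, and in tdTom+ cells 1 α subunit was higher, 5 α and 4 β subunits were lower, and 7 subunits were not called. That was 5.88% higher and 52.9% lower, beside 25.5% of all genes tested in each direction. The median log2 fold change was −0.40 over all 17 and −0.84 over the 5 β subunits. In both fractions the most abundant subunits per kilobase were Itgb1, Itga6, Itgb4 and Itga3, with medians of 53.2, 27.6, 26.6 and 25.2 RPKM in tdTom+ and 59.4, 33.0, 35.3 and 26.3 RPKM in tdTom- cells. Itga6, Itgb4 and Itga3 overlap in tdTom+ cells and cannot be ranked among one another there.

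**Figure D4:**
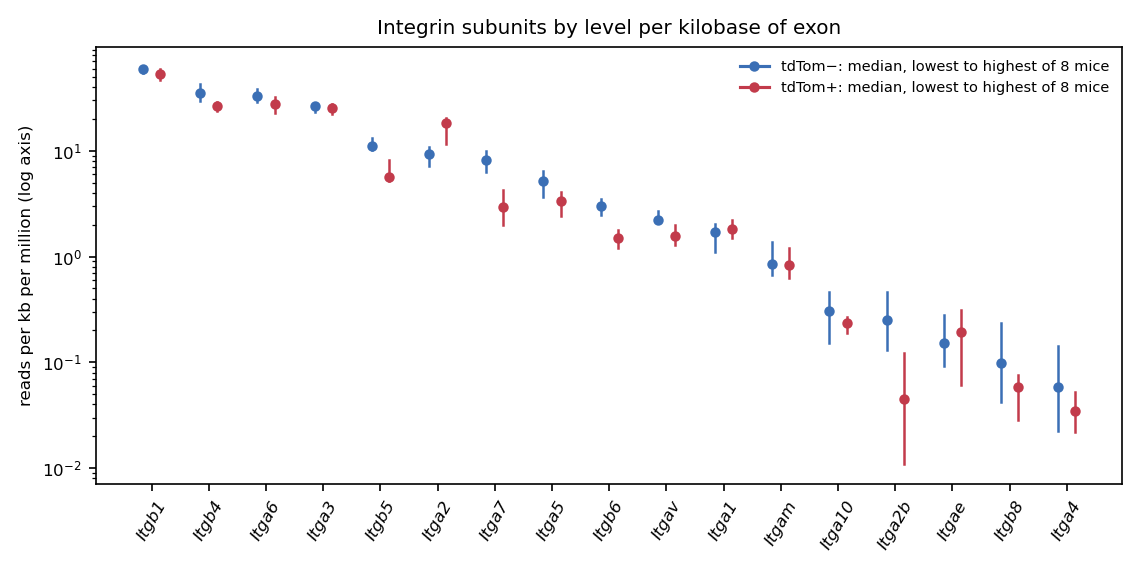
Median RPKM (log axis) of the 17 integrin subunits tested, with lines from the lowest to the highest of 8 mice, tdTom- beside tdTom+, in order of the tdTom- level. Itga2 is the subunit called higher in tdTom+ cells, and Itgb4, Itgb5, Itga7, Itgb6, Itgav and Itga2b lie below their tdTom- range.

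The abundant laminin-binding subunits shifted little. Itga3 had 127, 144 and 157 CPM in tdTom+ and 134, 150 and 158 CPM in tdTom- cells and was not called (log2 fold change −0.04, standard error 0.055, adjusted p = 0.574). Itga6 had 208, 249 and 289 CPM against 259, 298 and 350 CPM (log2 fold change −0.27, standard error 0.074, adjusted p = 0.00401), and was lower in 8 of 8 mice with overlapping groups. This call was lost when mouse 3, mouse 5 or mouse 6 was left out (adjusted p = 0.0125, 0.0148 and 0.0108) and in mice 1 to 3 or 5 to 8 alone. Those fits did not pair the libraries of a mouse. With the mouse as a block over all 8 mice, Itga6 was called (−0.27, adjusted p = 8.29e-05).

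Itgb4 (ENSMUSG00000020758), the β subunit of hemidesmosomes, had 169, 187 and 204 CPM against 209, 247 and 299 CPM, without overlap (log2 fold change −0.40, standard error 0.069, adjusted p = 4.61e-05), although mice 1 to 3 alone just missed the threshold (adjusted p = 0.0102). The fit of mice 1 to 3 was unpaired, and the block fit over all 8 mice called Itgb4 (−0.39, adjusted p = 9.33e-06). Itgb1, which pairs with most of the α subunits here, had 189, 217 and 242 CPM against 224, 243 and 254 CPM and was not called (log2 fold change −0.12, standard error 0.057, adjusted p = 0.0752). The receptor genes of the hemidesmosome thus differed by at most 1.32-fold, where the α and β chain genes of its laminin, Lama3 and Lamb3, differed by 19.8-fold and 3.75-fold. Itga7, the laminin-binding α subunit best known from muscle, fell from 25.5, 32.9 and 39.996 CPM in tdTom- to 7.95, 11.9 and 16.99 CPM in tdTom+ cells (log2 fold change −1.51, standard error 0.13, adjusted p = 1.65e-09), with no overlap.

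Of the collagen-binding subunits, Itga2 (ENSMUSG00000015533; chromosome 13, 114835916 to 114932041, minus strand) was the integrin gene called higher. It had 49.1, 77.5 and 85.3 CPM in tdTom+ and 30.5, 39.6 and 46.0 CPM in tdTom- cells, without overlap and higher in 8 of 8 mice (log2 fold change 0.89, standard error 0.11, adjusted p = 8.60e-07). Itga1, its relative, had medians of 10.9 and 10.3 CPM and was not called (log2 fold change 0.10, standard error 0.11, adjusted p = 0.431). Itga10 was not called either, and 33.5% of its exon bases are shared with another gene on the same strand, so that its counts are uncertain.

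The αv subunit, 3 of its β partners and the α5 subunit of the fibronectin receptor were lower in tdTom+ cells. Itgav had 13.7, 16.6 and 21.6 CPM against 22.5, 23.96 and 28.7 CPM (log2 fold change −0.53, standard error 0.082, adjusted p = 1.18e-05). Among its β partners, Itgb5 had 17.4, 19.2 and 27.5 CPM against 34.0, 37.6 and 44.6 CPM (−0.84, standard error 0.091, adjusted p = 8.48e-08). Itgb6, the partner that activates TGF-β on epithelia, had 8.51, 10.6 and 12.8 CPM against 17.5, 21.2 and 24.7 CPM (−1.01, standard error 0.099, adjusted p = 1.82e-08). These genes did not overlap between the groups.

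Itgb8, the other TGF-β activating partner, was scarce, with 0.317, 0.642 and 0.841 CPM against 0.466, 1.08 and 2.59 CPM (−1.12, standard error 0.32, adjusted p = 0.00523). It was not called when mouse 2, 3, 5, 7 or 8 was left out, with adjusted p = 0.0119, 0.0129, 0.0135, 0.0200 and 0.0171, or by limma-voom (adjusted p = 0.0403). Those fits did not pair the libraries of a mouse. With the mouse as a block, Itgb8 was called (−1.07, adjusted p = 0.00151). Itga5, the α subunit of the fibronectin receptor, had 10.5, 14.6 and 17.99 CPM against 16.2, 22.8 and 28.1 CPM (−0.71, standard error 0.11, adjusted p = 1.67e-05), and the low end of its tdTom- range was mouse 2. Among the β subunits, Itgb1 took 61.0% of the reads per kilobase in tdTom+ and 54.1% in tdTom- cells, Itgb4 29.8% and 31.8%, Itgb5 6.54% and 10.4%, and Itgb6 1.67% and 2.85%.

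Integrins of blood cells were at low levels. Itga2b, the platelet subunit, had 0.0598, 0.243 and 0.666 CPM in tdTom+ and 0.717, 1.37 and 2.54 CPM in tdTom- cells (log2 fold change −2.37, standard error 0.36, adjusted p = 8.25e-06). Itga4 was at 0.483 and 0.817 CPM (−0.98, adjusted p = 0.0136), and passed with the mouse as a block (−0.92 at adjusted p = 0.00448), without mouse 4 (−1.14, adjusted p = 0.00219) and in mice 1 to 3 alone. Itgam and Itgae, with medians of 5.25 and 0.889 CPM in tdTom+ and 5.39 and 0.695 CPM in tdTom- cells, were not called. The α subunits left out by the filter, not all of them of blood cells, were Itgal, Itgax, Itgad, Itga8, Itga9 and Itga11, with 62 to 218 counts over all libraries. The β subunits left out were Itgb2, Itgb3 and Itgb7, with 10 to 94.

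Leukocyte markers were scarce too. Of 10 such markers 2 were tested, and both (Ptprc and Cd68) were lower in tdTom+ cells, with a summed level of 2.45 to 4.41 CPM against 4.88 to 12.4 CPM. Itgb2 had 5 reads in tdTom+ and 89 in tdTom- libraries, most of them in the tdTom- library of mouse 2, where it had 2.55 CPM. The part of leukocytes in Itga4, Itgam, Itgax and Itgb2 was not tested.

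Genes that act with the members were taken as 5 lists, counted in the same fit and read beside the 25.5% of all genes called in each direction. Adaptors that couple integrins to actin were divided: of 22 genes 18 were tested, with 6 higher and 6 lower (8 lower with the mouse as a block). Fermt3, the kindlin of blood cells, was at 1.69 on the log2 scale (standard error 0.17, adjusted p = 3.42e-08), and Actn1, an actin crosslinker, 1.08 (standard error 0.078, adjusted p = 1.37e-10). Tns4, a tensin that lacks an actin-binding region, was at −2.35 (standard error 0.12, adjusted p = 5.75e-13), and the focal adhesion kinase relative Ptk2b at −0.83 (standard error 0.060, adjusted p = 1.43e-10). The talin gene Tln1 was not called (−0.09, adjusted p = 0.260).

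All 11 hemidesmosome partners and other matrix receptors were tested, with 3 higher and 6 lower. Sdc1, the main epithelial syndecan, was at −1.0003 (standard error 0.059, adjusted p = 6.14e-12), Bcam, which binds Lama5 laminins, at −0.79 (standard error 0.084, adjusted p = 5.83e-08), and Plec, which links integrin β4 to keratin, at −0.69 (standard error 0.093, adjusted p = 1.55e-06). Dst, which codes for another keratin linker, and Sdc2 were higher, at 0.43 (standard error 0.13, adjusted p = 0.00642) and 0.40 (standard error 0.064, adjusted p = 1.75e-05). Dst was not called when mouse 1, 4, 6 or 8 was left out (adjusted p = 0.0151, 0.0145, 0.0220 and 0.0211). In mice 1 to 3 alone neither Dst (adjusted p = 0.181) nor Sdc2 (adjusted p = 0.0156) was called. None of these fits paired the libraries of a mouse. The block fit over all 8 mice called Dst (0.45, adjusted p = 2.23e-04) and Sdc2 (0.40, adjusted p = 2.37e-06).

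Collagen folding, secretion and crosslinking was the list with the most genes called higher. Of 31 genes 19 were tested, with 11 higher, 3 lower and a median log2 fold change of 0.73 (13 higher with the mouse as a block). Adamts3, a procollagen N-proteinase, was at 5.16 (standard error 0.46, adjusted p = 3.85e-09), from a median of 0.120 to one of 3.15 CPM, and the lysyl oxidase relative Loxl3 at 2.97 (standard error 0.31, adjusted p = 5.29e-08). The collagen prolyl hydroxylase subunit gene P4ha2 was at 2.41 (standard error 0.11, adjusted p = 1.22e-13). Plod2, a lysyl hydroxylase gene, and Pcolce, which enhances procollagen processing, were lower, at −2.43 and −1.89. Pcolce was not called in mice 1 to 3 alone (−1.33, adjusted p = 0.0948), in a fit without pairing. The block fit over all 8 mice called Pcolce (−1.96, adjusted p = 1.13e-05).

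Several of these genes act on more than collagen. P4hb, the protein disulfide isomerase that is also the prolyl hydroxylase β subunit, had a median of 2228 CPM in tdTom+ against 806 CPM in tdTom- cells (1.47, adjusted p = 8.91e-13). Mia3, which helps bulky cargo leave the endoplasmic reticulum, had 272 and 64.0 CPM (2.06, adjusted p = 1.38e-15), and the prolyl isomerase gene Ppib had 457 and 207 CPM (1.12, adjusted p = 4.98e-11).

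**Figure D5:**
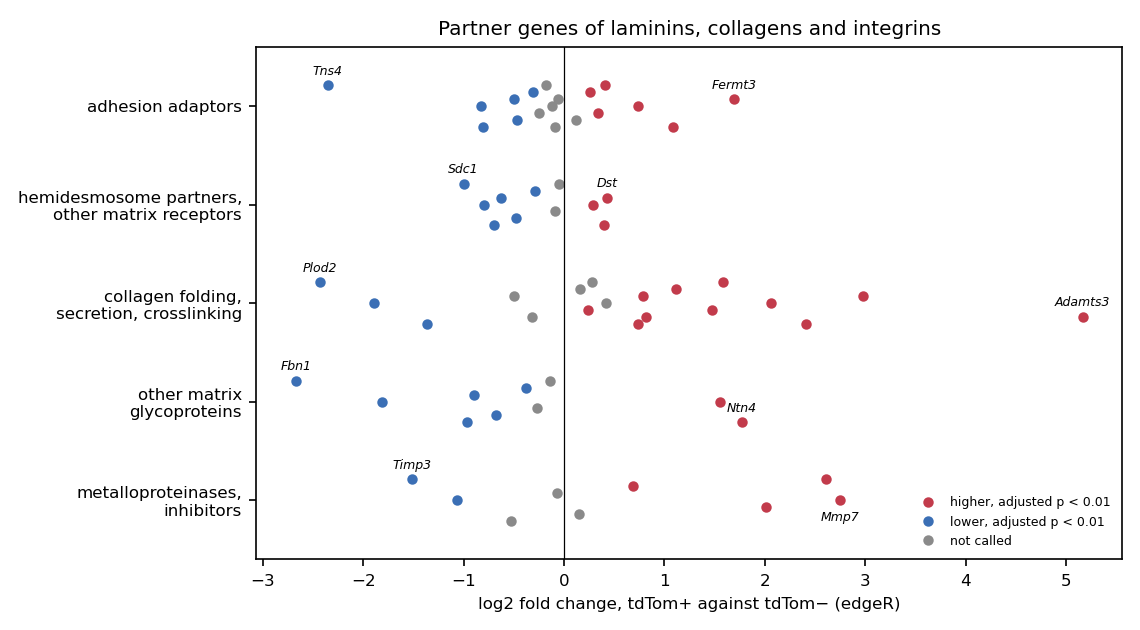
Log2 fold change, tdTom+ against tdTom- cells, of the tested genes in 5 lists of partner genes, coloured by call, with the gene at each end of a list named. Collagen folding, secretion and crosslinking has 11 of 19 genes called higher, and hemidesmosome partners and other receptors 6 of 11 called lower.

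Of 22 other matrix glycoproteins and proteoglycans 10 were tested, with 2 higher and 6 lower. Thbs1, the adhesive glycoprotein thrombospondin, had 189, 259 and 499 CPM in tdTom+ against 56.8, 86.2 and 191 CPM in tdTom- cells (1.55, standard error 0.23, adjusted p = 5.20e-06), and Ntn4, a laminin-related netrin that binds laminin γ chains, was at 1.77 (standard error 0.11, adjusted p = 2.34e-11). Fbn1, the fibrillin of microfibrils, was at −2.67 (standard error 0.23, adjusted p = 2.97e-09). Fn1, which encodes fibronectin, was at −1.81 (standard error 0.51, adjusted p = 0.00419). It was not called when mouse 2, 5 or 8 was left out (adjusted p = 0.0135, 0.0123 and 0.0112) or by limma-voom (adjusted p = 0.0121). None of these fits paired the libraries of a mouse. The block fit over all 8 mice called Fn1 (−1.63, adjusted p = 4.85e-05).

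Of 21 metalloproteinases and their inhibitors 9 were tested, with 4 higher and 2 lower. Mmp7, which is secreted by epithelia, was at 2.75 (standard error 0.27, adjusted p = 1.60e-08) and Mmp28 at 2.61 (standard error 0.12, adjusted p = 2.12e-13). The inhibitor genes split, with Timp2 at 2.01 (standard error 0.11, adjusted p = 1.87e-12) and Timp3 at −1.52 (standard error 0.11, adjusted p = 2.62e-10). Mmp17 was at −1.06 (standard error 0.25, adjusted p = 0.00114), and was not called in mice 1 to 3 alone (adjusted p = 0.0778) or in mice 5 to 8 alone (adjusted p = 0.0319). These subset fits did not pair the libraries of a mouse. Smoc2, Dcn and Lum are in a list of partners and in a list of cell type markers.

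Col4a3bp, taken in through its symbol alone, had 86.5, 95.2 and 101 CPM in tdTom+ and 55.5, 58.3 and 64.9 CPM in tdTom- cells (log2 fold change 0.69, standard error 0.048, adjusted p = 7.21e-11). It counts among the 7 members higher, so that 6 of the 7 are matrix or receptor genes.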

How the data were processed

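RNA of sorted EpCAM+ colon cells was made into libraries with a TruSeq Stranded mRNA kit. Per the file headers, the study's methods and the submitters' processing notes, the authors aligned single-end reads to GRCm38 (GRCm38.p3) with TopHat2 2.1.1 and counted primary alignments on the reverse strand over exons with featureCounts (1.5.0-p1 in the headers, Subread 1.5.2 in the notes). The deposited values are raw read counts per gene, 1 library a file. The notes also name DESeq2 1.14.1. The labels give 1 mg of tamoxifen daily over 3 days. The study's methods give the same for the mice that defined its secretory signature, which compares tdTom+ with tdTom- cells. Its methods for sequencing give another schedule.

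Groups and mouse numbers came from the labels. Symbols came from GENCODE M21, for 44671 of 45513 genes. The members, partner lists and tests were chosen with earlier results of these data known. The count test was edgeR's quasi-likelihood test (version 4.0.16, R 4.3.3) after filterByExpr and TMM, with the group as its single term, at an adjusted p under 0.01, and standard errors were derived from the fold change and the F statistic. RPKM is TMM-scaled CPM per kilobase of the exon length in the files. Shares of a chain class were computed per library and not tested. Log2 CPM used a prior count of 2. Levels were compared between genes only per kilobase. A count of 3 in a library, 0.0655 to 0.182 CPM, was taken as the floor, which covers counting error only. Litters are not given in the sources used here.

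Alternatives were the mouse as a replicate block, RLE and upper-quartile scaling, DESeq2 1.42.0, limma-voom (limma 3.58.1), no filter, at least 10 counts in every library, each mouse left out, mice 1 to 3 or 5 to 8 only (the mouse numbers of the labels fall into 3 series, with mouse 4 alone), and an adjusted p under 0.05. The mouse numbers pair the libraries: deviations from the group means correlated by 0.223 to 0.408 in the 8 same-mouse pairs and by −0.262 to 0.168 between different mice. Only the block fit used this pairing, and the fits with mice left out had the group as their single term. No 2 libraries of a group agreed within sampling noise. 1 member is not reported here. Otherwise named with values were every laminin, nidogen, perlecan and type IV collagen gene tested, every other member called, and those at a median of at least 10 CPM. Values for each partner list are those of its 2 largest changes called in each direction, and P4hb, Mia3, Ppib, P4ha2, Plec, Tln1 and Timp2 were named after their values were seen.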

Additional observations from a re-analysis of the deposited data

Results flagged for a closer look

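In 84 groups of 8 libraries (the members tested and the total counts, each in tdTom+ and tdTom- cells), 6 held a library far from the other 7 by Dixon's test, where chance gives about 4.2. All 6 were tdTom- libraries. The tdTom- library of mouse 4 had 45791503 counts against 18318172 to 20668605 in the others, and its Nid1 level was −1.24 log2 CPM against −0.31 to 0.31.

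Mouse 2 gave 2 of the flags. Itga5, of the fibronectin receptor, was at 4.02 log2 CPM there against 4.46 to 4.82 in the other tdTom- libraries, and Itgam, of a leukocyte integrin, was at 3.13 against 2.12 to 2.58. Itga1 was at 2.73 in mouse 8 against 3.25 to 3.60, and Col4a1 was at −0.97 in mouse 7 against −0.14 to 0.51.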

How the results depend on the processing

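Of 679 fold changes of the 41 members under the alternatives, 647 kept direction and side of the threshold, and 18 of the 27 called members kept their call under every alternative run. The 2 that turned were of genes not called: Itga10, at 0.029 with mice 5 to 8 only, and Itgae, at −0.49 with mice 1 to 3 only. With at least 10 counts in every library, 4 members were higher and 13 lower, of 26 tested, beside 3668 genes higher and 3589 lower of 14152. Lamb1, Col28a1, Col18a1, Col6a5 and Itga2b, counted among the 18 above, did not pass that filter and were not tested under it. With mice 1 to 3 only, 13 members were lower, and 2546 genes were higher and 2559 lower. With each mouse left out in turn, 7 to 8 members were higher and 18 to 23 lower, and 3670 to 4177 genes were higher and 3700 to 3914 lower.

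With the mouse as a replicate block, 8 members were higher and 21 lower, with 4494 and 4574 of all genes, and among the members it changed no call but those of Col20a1 and Itga4. Depth limits the type IV collagens, Col6a5, Col27a1, Lama4, Nid1, Itgb8, Itga2b, Itga4 and Itgae, which had about 1 CPM or less in most libraries, and the members left out by the filter.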
